A study of Mus musculus with 4 samples.

Results

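The transcription factors *Alx1*, *Alx4*, *Prrx1*, *Prrx2*, *Tfap2a*, *Tfap2b*, *Twist2*, *Snai1* and *Snai2* are 9 genes known from the cranial neural crest and the facial mesenchyme it forms. They were taken by gene symbol from the expression tables, where they were 9 of 22096 genes and 13 of 28107 transcript entries. *Tfap2a* and *Tfap2b* appear in the tables under their older symbols, Tcfap2a and Tcfap2b, and were matched through RefSeq synonyms. RNA was sequenced from 4 mouse embryos of mixed background at E13.5, when the palatal shelves grow downward beside the tongue. From each embryo the palatal shelves were dissected, and the cells that expressed red fluorescent protein (RFP) were sorted and made into a library of their own. The *Foxf2*-/- group held 2 embryos that lack *Foxf2* in every cell. The control group held 2 littermates, of which 1 was *Foxf2*+/+ and 1 was *Foxf2*+/-, so each control genotype had no replicate. These are called mutant, wild-type and heterozygous embryos below. All 4 embryos were *Osr2RFP/+*, which means that RFP replaced *Osr2* on 1 allele in both groups and that the cells studied are those in which *Osr2* is active. Because whole sorted populations were sequenced, fewer cells of a type and less RNA per cell cannot be told apart in any value below.

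Neural crest cells leave the dorsal neural tube, migrate into the face and give rise to the mesenchyme that fills the palatal shelves. The 9 genes belong to 5 families that act at successive steps of this path. AP-2 factors (*Tfap2a*, *Tfap2b*) take part in specifying the crest at the border of the neural plate. Snail zinc finger repressors (*Snai1*, *Snai2*) are classically linked to the loss of epithelial contacts when crest cells leave the neural tube. In mice *Snai1* and *Snai2* act together in the development of the palate. The bHLH factor *Twist2* and its relative *Twist1* keep mesenchymal precursors undifferentiated, and the paired-type homeodomain factors *Prrx1*, *Prrx2*, *Alx1* and *Alx4* pattern the facial skeleton.

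Expression was given as FPKM, fragments per kilobase of transcript, scaled to the size of the library, and the entries of a gene were summed. The number of reads per library is unknown, because the tables hold no counts. Average read coverage divided by FPKM was 1.36 in the wild-type library, 1.61 in the heterozygous library, and 1.39 and 1.55 in the mutant libraries, so the depths lay within 1.19-fold of each other. Among the members, summed coverage was lowest for *Tfap2a*, at 6.49 to 11.0, and highest for *Prrx1*, at 161 to 204.3. The values of *Tfap2a* and *Alx4* therefore rest on the fewest reads per base and those of *Prrx1* on the most. *Foxf2*, the targeted gene, had an FPKM of 85.4 in the wild-type control, 45.1 in the heterozygote, and 1.41 and 2.28 in the mutants, which matches the labels. *Osr2*, whose reporter was sorted, lay between 129 and 147.5 in all 4 embryos. Summed over 6 palatal mesenchyme markers, the FPKM was 699 to 740 in the controls and 723 to 803.5 in the mutants. The 6 include *Twist1*, which is described below. They did not move together, and their log2 fold changes, mutant minus control, ran from -0.30 for *Twist1* to 0.50. Markers of other cells were lower: 9 epithelial markers summed to 3.92 to 5.23 in the controls and 5.29 to 6.72 in the mutants, and the leukocyte markers to 5.93 to 7.58 and 6.22 to 8.93. Endothelial markers summed to 0.404 to 0.608 in the controls and 0.893 to 1.503 in the mutants, those of glia and neurons to 3.27 to 5.26 and 5.41 to 5.82, and those of skeletal muscle to 0.251 to 0.302 and 0.104 to 0.207. Erythroid markers ranged more widely, from 18.7 to 102 in the controls and from 107 to 254.7 in the mutants. The part of these cells in the results below was not tested.

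All 9 genes were expressed in the sorted cells, and every one reached an FPKM of 5 in at least 1 embryo, the level required for a gene to be tested. *Prrx1* was the highest, with a mean of 126 over the 4 embryos, and stood at the 96.9th percentile of the 7399 genes tested. *Snai2* followed with a mean of 51.8, *Prrx2* with 38.9 and *Tfap2b* with 27.8. The mean was 15.8 for *Twist2*, 11.1 for *Alx1*, 8.90 for *Snai1*, 6.43 for *Alx4* and 5.60 for *Tfap2a*. In this order the values of neighbours overlapped between embryos for 2 of the 8 neighbouring pairs, *Alx1* with *Snai1* and *Alx4* with *Tfap2a*. *Snai2* and *Prrx2* came close, since *Snai2* was lowest at 40.1 and *Prrx2* highest at 39.9. FPKM is a value per length of transcript, which is what allows these levels to be set side by side.

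**Figure D1:**
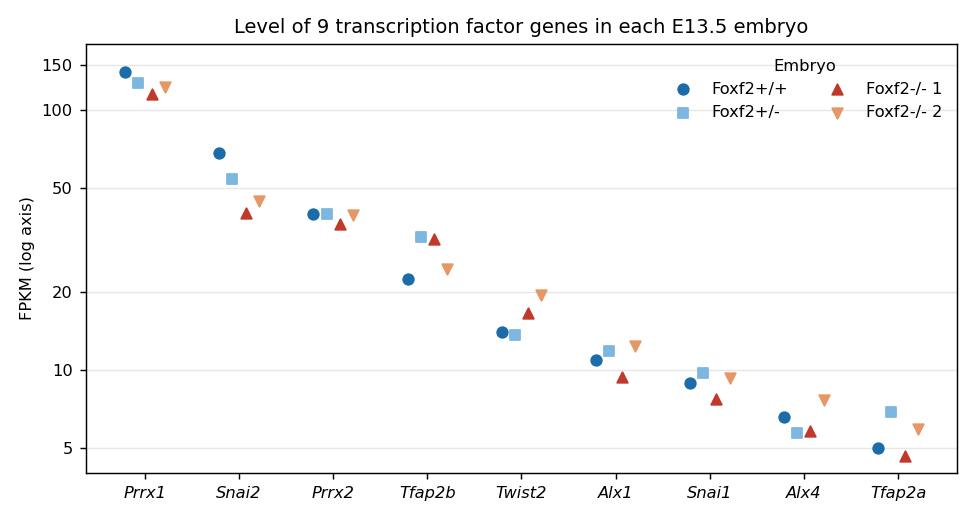
FPKM of the 9 transcription factors in each of the 4 embryos, on a log axis, with the genes ordered by their mean. Each point is 1 embryo, and its colour and shape give the embryo. *Prrx1* sits between 116 and 140 in every embryo and *Tfap2a* between 4.66 and 6.84, and the *Foxf2*-/- points of *Twist2* lie above both controls while those of *Snai2* lie below both.

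The comparison of *Foxf2*-/- with control embryos asks which genes change in *Osr2*-expressing palatal mesenchyme without *Foxf2*. None of the 9 genes passed the test: limma, a linear model fitted over all 7399 genes on log2(FPKM + 0.1), called 0 of 9 at a Benjamini-Hochberg adjusted p under 0.05 and a change over 1.5-fold, beside 6 of 7399 genes (0.0811%). None of the 9 had a mutant mean more than 1.5-fold from each control in the same direction, which 49 of the 7399 genes had (0.662%). At an unadjusted p under 0.05 there were 2 members, *Snai2* lower and *Twist2* higher in the mutants, beside 14.7% of all genes, 11.9% lower and 2.76% higher. The smallest p that exact permutation of 2 against 2 embryos allows is 0.3333.

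In 4 of the 9 genes the values of the groups did not overlap, which held for 47.4% of all genes tested. *Twist2* was higher in both mutants than in both controls, as were 8.66% of all genes, and *Prrx1*, *Prrx2* and *Snai2* were lower, as were 38.7%. Most genes leaned the same way in the deposited values, where 73.1% of the 7399 genes had a negative log2 fold change, against 50.3% after median-ratio scaling between embryos and 54.1% after upper-quartile scaling. Under either scaling *Twist2* still lay above both controls (21.5% and 19.3% of all genes) and *Prrx1* and *Snai2* below both (22.3% and 24% of all genes), whereas *Prrx2* no longer did. Median-ratio scaling moved the median of all genes by 0.0807 on the log2 scale. The median log2 fold change of the 9 genes was -0.07, beside -0.08 over all genes.

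The members also varied within a group. The median difference between the wild-type and heterozygous controls was 0.14 on the log2 scale over the 9 genes and 0.11 over all genes, and between both mutants it was 0.26 and 0.12. The largest such difference between the controls was 0.53, for *Tfap2b*, and between the mutants 0.39, for *Alx4*. The median size of the difference between the groups was 0.14 over the 9 genes and 0.12 over all genes.

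**Figure D2:**
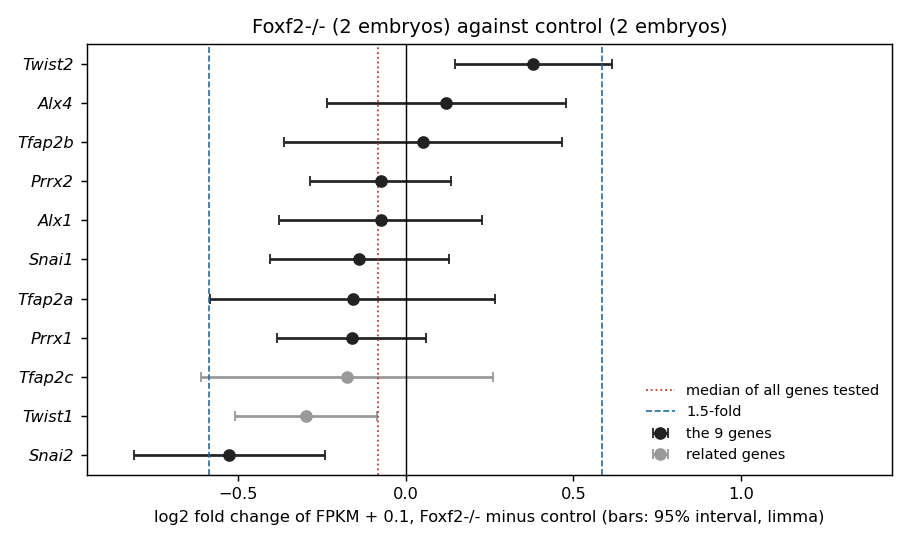
Log2 fold change of the 9 genes, *Foxf2*-/- minus control embryos, on log2(FPKM + 0.1). Points are the limma estimates from 2 embryos a group and bars the 95% confidence intervals, with the relatives *Twist1* and *Tfap2c* in grey, dashed lines at 1.5-fold and a dotted line at the median of all genes tested. The intervals of *Snai2*, -0.81 to -0.24, and *Twist2*, 0.15 to 0.61, do not reach 0, and the intervals of the other 7 members do.

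*Snai2*, which codes for the Snail family repressor also called Slug, showed the largest difference of the 9 in the deposited values. The gene lies at chr16:14705952-14709475 (mm9, + strand). Its FPKM was 68.3 in the wild-type control, 54.3 in the heterozygote, and 40.1 and 44.6 in the mutants. Both mutant values were lower than either control, and the heterozygote lay between them and the wild-type control. The controls averaged 61.3 ± 9.87 (SD, n = 2) and the mutants 42.3 ± 3.15 (SD, n = 2). This is 0.695 of the control level (95% confidence interval 0.571 to 0.846), a log2 fold change of -0.53 with a standard error of 0.12, and did not pass (limma adjusted p = 0.154). The result turned on which control was used, because the difference was -0.69 from the wild-type control and -0.36 from the heterozygote. Without the heterozygote limma called *Snai2* (adjusted p = 0.0174), and without the wild-type control the adjusted p was 0.583. Both fits have 1 control, whose spread is assumed to be that of the mutant group. *Prrx1* had the same order of genotypes, which 25.9% of all genes tested also had in that direction. The rank of *Snai2* depended on the scaling between embryos. After median-ratio scaling its log2 fold change was -0.44, beside 0.46 for *Twist2*. After upper-quartile scaling these were -0.46 and 0.45.

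*Snai1*, the other Snail gene measured at an appreciable level, was lower in abundance and its groups overlapped. It lies at chr2:167363727-167368311 (mm9, + strand). Its FPKM was 8.92 and 9.70 in the wild-type and heterozygous controls, and 7.71 and 9.25 in the mutants. The log2 fold change was -0.14 (95% confidence interval -0.40 to 0.13, limma adjusted p = 0.614). The third Snail gene, *Snai3*, was listed at 0 in every embryo. The coding sequences of *Snai1* and *Snai2* share no exact run longer than 22 bases. That run opens both coding sequences and encodes the start of the SNAG domain, through which Snail proteins recruit corepressors. It is shown with the start codon in capitals, and lies at chr2:167363790-167363811 in *Snai1* and chr16:14706067-14706088 in *Snai2* (mm9, + strand, first coding exon).

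*Snai1* and *Snai2*: ATGccgcgctccttcctggtca

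Set within each embryo, where the scaling between libraries cancels, the ratio of *Snai2* to *Snai1* FPKM was 7.65 in the wild-type control, 5.60 in the heterozygote, and 5.20 and 4.82 in the mutants. The mutant ratios were both lower than the controls, by a log2 difference of -0.39, with an exact two-sided permutation p of 0.3333, the smallest that 2 against 2 can give.

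*Twist2*, a bHLH repressor of mesenchymal differentiation also known as Dermo1, was the member with the largest difference upward. It lies at chr1:93698054-93744604 (mm9, + strand). Its FPKM was 13.9 in the wild-type control, 13.6 in the heterozygote, and 16.6 and 19.3 in the mutants. Both mutant values exceeded both controls, and the controls differed from each other by less than the mutants did. The controls averaged 13.7 ± 0.256 (SD, n = 2) and the mutants 17.95 ± 1.93 (SD, n = 2). The mutant level was 1.30 times that of the controls (95% confidence interval 1.11 to 1.53), a log2 fold change of 0.38 with a standard error of 0.10, and did not pass (limma adjusted p = 0.219). The difference from each control was alike, 0.36 from the wild-type control and 0.40 from the heterozygote. Over every alternative setting and left-out embryo it stayed above 0, with adjusted p-values from 0.109 to 0.471.

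*Twist1*, the close relative required for the cranial mesenchyme, was about as abundant as *Prrx1* and was lower in the mutants. Its FPKM was 133 in the wild-type control, 125 in the heterozygote, and 103 and 107 in the mutants. The groups did not overlap, and *Twist1* was lower in both mutants, as were 38.7% of all genes. The log2 fold change was -0.30 (95% confidence interval -0.51 to -0.09) and did not pass (limma adjusted p = 0.240). The ratio of *Twist2* to *Twist1* FPKM within an embryo was 0.105 in the wild-type control, 0.108 in the heterozygote, and 0.161 and 0.181 in the mutants. *Twist2* remained much the less abundant of the pair in every embryo, and its share relative to *Twist1* was higher in both mutants, by a log2 difference of 0.68 with an exact two-sided permutation p of 0.3333, the smallest possible. Of the 5 ratios between paralogues that were computed, this one differed most between the groups. The groups did not overlap either for *Snai2* to *Snai1* and for *Alx1* to *Alx4*, with the same permutation p.

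*Twist1* and *Twist2* code for nearly identical bHLH domains. The longest exact run that their transcripts share is 23 bases, shown because it bounds how far a read could match both genes without a mismatch. Matches with mismatches were not searched. It lies in the bHLH coding region, at chr1:93698468-93698490 in *Twist2* and chr12:34643245-34643267 in *Twist1* (mm9, + strand, coding exon), with the first codon of the run in capitals.

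*Twist1* and *Twist2*: CTGcgcaagatcatccccacgct

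Among annotated transcripts of protein-coding genes, no stretch of 50 bases was shared between *Twist2* and any other gene, nor between any member and another member. Of the 50-base stretches of *Snai2*, 0.959% also occurred in other protein-coding genes, the highest share among the 9.

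**Figure D3:**
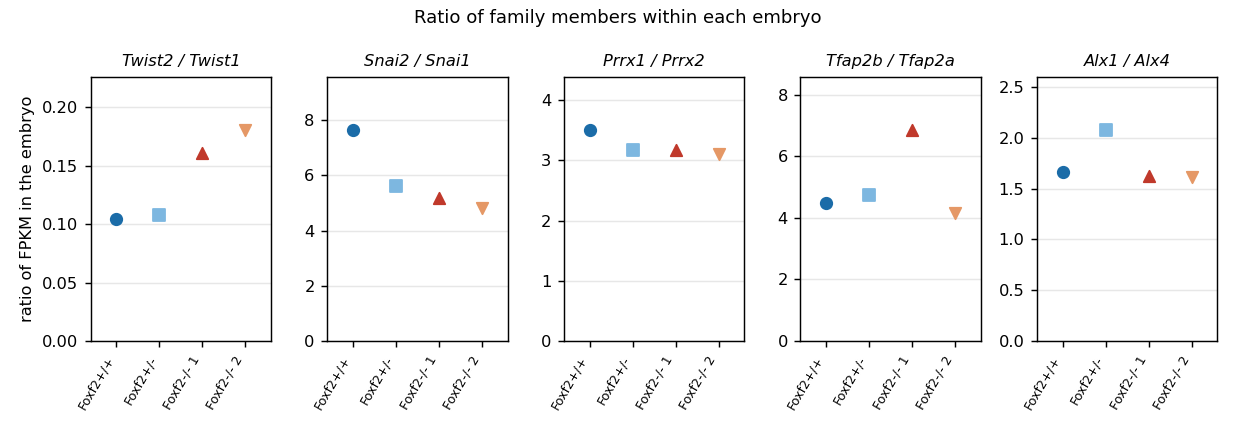
Ratio of the FPKM of paralogues within each embryo for 5 pairs, on linear axes from 0. Each point is 1 embryo, named below the axis. The *Twist2* to *Twist1* ratio is 0.105 and 0.108 in the controls, against 0.161 and 0.181 in the *Foxf2*-/- embryos, and the *Tfap2b* to *Tfap2a* ratios overlap between the groups.

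*Prrx1* and *Prrx2* code for paired-related homeodomain proteins that act together in the outgrowth of the lower jaw and the limb. They lie at chr1:165175250-165243781 (- strand) and chr2:30700887-30736767 (+ strand) in mm9. *Prrx1* had an FPKM of 139.9 in the wild-type control, 127 in the heterozygote, and 116 and 122.5 in the mutants. The groups did not overlap, but the nearest values of the groups lay closer together than the controls did. The controls averaged 133 ± 9.28 (SD, n = 2) and the mutants 119 ± 4.76 (SD, n = 2), a log2 fold change of -0.16 (95% confidence interval -0.38 to 0.06, limma adjusted p = 0.480). *Prrx2* was among the most even genes of the set, at 39.9 in both controls and 36.5 and 39.4 in the mutants. Its log2 fold change was -0.07 as deposited (95% confidence interval -0.28 to 0.14, limma adjusted p = 0.744) and 0.01 after median-ratio scaling, so no direction can be given. The ratio of *Prrx1* to *Prrx2* was 3.51 and 3.18 in the wild-type and heterozygous controls, and 3.18 and 3.11 in the mutants, so that the heterozygote and the first mutant were equal to the digits given.

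*Prrx1* is listed as 3 transcript entries, which end in different ways. NM_011127 and NM_175686 differ by an additional exon of 72 bases, exon 4, at chr1:165184108-165184179 (mm9, - strand), which follows a shared exon of 182 bases. Reading on from that shared exon, the form with the additional exon meets a stop codon inside it and codes for 217 amino acids. The form without it runs on into the last exon and codes for 245 amino acids, adding the OAR domain found at the end of many paired-type homeodomain proteins. The coding ends after the shared exon are shown 5′ to 3′ on the gene's strand with the stop codon in capitals, since they are what tells these forms apart. They lie at chr1:165184125-165184179 with the additional exon and chr1:165178389-165178527 without it.

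*Prrx1* with the additional exon (NM_175686): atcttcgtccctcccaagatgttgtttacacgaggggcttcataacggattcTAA

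*Prrx1* without the additional exon (NM_011127): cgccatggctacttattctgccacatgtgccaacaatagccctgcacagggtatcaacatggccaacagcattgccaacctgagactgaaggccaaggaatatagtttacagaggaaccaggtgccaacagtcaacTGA

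The entry without the additional exon had an FPKM of 65.9 in the wild-type control, 64.5 in the heterozygote, and 54.1 and 49.4 in the mutants. The entry with it had 51.2 and 44.1 in the wild-type and heterozygous controls, and 43.2 and 52.7 in the mutants. The first was lower in both mutants than in both controls, with a log2 difference of -0.33 between the groups. At the level of genes, 38.7% of those tested were lower in this way. Fitted as the highest entry of *Prrx1*, the first did not pass (limma adjusted p = 0.335). The second overlapped, with a difference of 0.01. As a share of *Prrx1*, the entry without the additional exon made up 47.1% and 50.9% in the controls, and 46.7% and 40.3% in the mutants. The entry with it made up 36.6% and 34.8% in the controls, and 37.3% and 43.0% in the mutants. Only the second mutant thus had more of the form with the additional exon than of the form without it, and the first had shares close to those of the wild-type control. The remaining entry, NM_001025570, which has another 3′ end, held 14.3% to 16.7% in the 4 embryos. The forms share most of their length, so the split between them is an estimate made by the program that wrote the table. The difference between the forms was not tested.

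**Figure D4:**
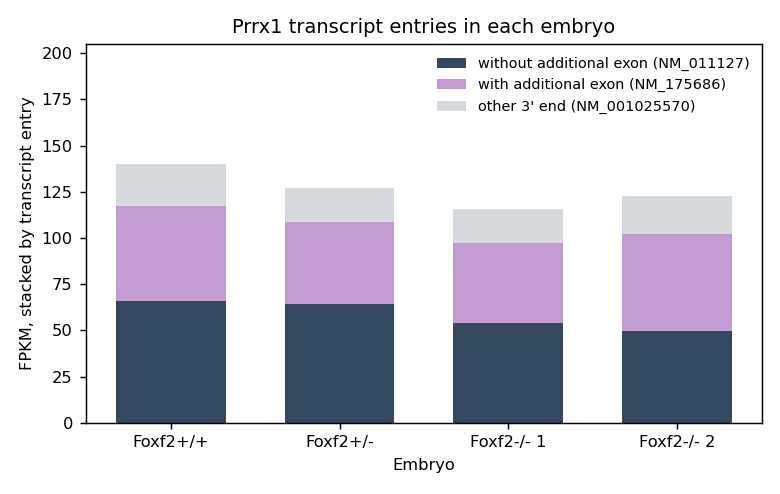
FPKM of the 3 *Prrx1* transcript entries, stacked in 1 bar for each of the 4 embryos, so that the height of a bar is the FPKM of the gene. The entry without the additional exon is at 64.5 and 65.9 in the controls, against 49.4 and 54.1 in the *Foxf2*-/- embryos, and the entry with it overlaps between the groups.

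*Alx1* and *Alx4* code for aristaless-like homeodomain proteins, which pattern the frontonasal skeleton. They lie at chr10:102470481-102491411 (- strand) and chr2:93482591-93521496 (+ strand) in mm9. *Alx1* had an FPKM of 10.9 and 11.8 in the wild-type and heterozygous controls, and 9.41 and 12.3 in the mutants. The 2 mutants were the lowest and the highest of the 4. The log2 fold change was -0.07 as deposited (95% confidence interval -0.38 to 0.23, limma adjusted p = 0.828) and 0.01 after median-ratio scaling. *Alx4* had 6.57 and 5.70 in the controls, and 5.80 and 7.65 in the mutants, so that the groups overlapped as well. Its log2 fold change was 0.12 (95% confidence interval -0.24 to 0.48, limma adjusted p = 0.751), and it was -0.07 without the second mutant. Both genes were higher in the second mutant than in the first, and their ratio was close in these embryos, 1.62 and 1.61, beside 1.66 and 2.08 in the controls. The mutant ratios were both lower than the controls, by a log2 difference of -0.20, with an exact two-sided permutation p of 0.3333.

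*Tfap2a* and *Tfap2b* code for AP-2 factors, which are shared by the neural crest and the surface ectoderm. *Tfap2a* lies at chr13:40811044-40829192 (- strand) and *Tfap2b* at chr1:19198995-19228815 (+ strand) in mm9. *Tfap2b* had an FPKM of 22.4 in the wild-type control, 32.4 in the heterozygote, and 32.0 and 24.4 in the mutants. The controls were the lowest and the highest of the 4, and the mutants lay between them. The log2 fold change was 0.05 (95% confidence interval -0.36 to 0.47, limma adjusted p = 0.923), being 0.32 from the wild-type control and -0.21 from the heterozygote. *Tfap2a* had 5.01 and 6.84 in the controls, and 4.66 and 5.89 in the mutants, with a log2 fold change of -0.16 (95% confidence interval -0.58 to 0.27, limma adjusted p = 0.732). Its direction too depended on the control, at 0.06 from the wild-type control and -0.38 from the heterozygote. *Tfap2b* exceeded *Tfap2a* in every embryo, by a ratio of 4.48 and 4.73 in the controls, and 6.86 and 4.15 in the mutants. *Tfap2c*, another AP-2 gene, had 7.08 and 9.94 in the controls, and 8.74 and 6.29 in the mutants (limma adjusted p = 0.707). The 3 AP-2 genes thus had overlapping groups and were all higher in the heterozygote than in the wild-type control. The epithelial markers summed to 3.92 in the wild-type control, 5.23 in the heterozygote, and 5.29 and 6.72 in the mutants, and their part in the AP-2 values was not tested. *Tfap2d* was listed at 0 in every embryo, and *Tfap2e* at 0 in 3 embryos and 0.0789 in 1.

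The standard errors of the 9 log2 fold changes ran from 0.09 for *Prrx2* to 0.19 for *Tfap2a*. The widest intervals were 0.668 to 1.20 times the control level for *Tfap2a* and 0.779 to 1.38 times for *Tfap2b*, so these data do not show that the AP-2 genes were equal between the groups. For *Prrx1* and *Prrx2* the intervals lie between 0.767 and 1.10 times the control level.

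The members work with partners and inhibitors, of which 13 of 15 listed genes were tested. limma called 0 of the 13, 4 had an unadjusted p under 0.05 (*Tcf4* and *Kctd1* higher, *Id1* and *Cited2* lower) beside 2.76% of all genes higher and 11.9% lower, and the median log2 fold change was 0.02, beside -0.08 over all genes. E proteins are the dimer partners of Twist factors, and Id proteins take E proteins away from them. *Id1* had an FPKM of 65.4 in the wild-type control, 60.04 in the heterozygote, and 45.9 and 43.0 in the mutants, which is 0.709 of the control level (limma adjusted p = 0.109). *Id3* had 70.3 and 76.0 in the controls, and 68.0 and 80.4 in the mutants (limma adjusted p = 0.963). *Id1* was thus lower in both mutants, as were 38.7% of all genes, while the groups overlapped for *Id3*. Of the E proteins, *Tcf4* had 47.7 and 48.3 in the controls, and 56.2 and 58.9 in the mutants, 1.20 times the control level (limma adjusted p = 0.270), and *Tcf12* had 65.0 and 65.3, and 62.7 and 61.0 (limma adjusted p = 0.735). *Cited2*, a coactivator of AP-2, had 29.9 and 24.99 in the controls, and 20.8 and 23.6 in the mutants, and *Kctd1*, an inhibitor of AP-2, had 11.9 and 13.2, and 16.1 and 14.6. These AP-2 cofactors were named after their values were seen, and neither passed (limma adjusted p = 0.299 and 0.272). *Kctd15*, the relative of *Kctd1* in the same list, had 21.3 and 21.9 in the controls, and 19.8 and 22.5 in the mutants. Its groups overlapped (limma adjusted p = 0.911). *Hand1* and *Hand2*, bHLH partners of Twist in other tissues, did not reach an FPKM of 5 in any embryo.

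Of 11 genes of the early neural crest 3 reached the level for a test, and 8 did not, among them *Foxd3*, *Sox10* and *Pax3*, which mark the premigratory crest or its neural and pigment derivatives. limma called 0 of the 3, 0 had an unadjusted p under 0.05 beside 14.7% of all genes, and their median log2 fold change was -0.10, beside -0.08 over all genes. The groups overlapped for each of the 3. *Ngfr*, the low-affinity neurotrophin receptor used to isolate crest cells, had 75.2 and 66.4 in the controls, and 58.5 and 73.9 in the mutants. *Sox9*, the regulator of cartilage, had 17.2 and 15.6 in the controls, and 13.2 and 16.1 in the mutants. *Msx1*, a homeobox gene needed for the palate, had 7.17 and 7.91 in the controls, and 7.72 and 8.51 in the mutants.

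Of 13 genes that mark epithelial or mesenchymal state, the kind of gene Snail and Twist factors control, 6 were tested. The 7 that did not reach an FPKM of 5 included *Cdh1*, which codes for E-cadherin, together with occludin and 3 claudin genes. limma called 0 of the 6, 1 had an unadjusted p under 0.05 beside 14.7% of all genes, and the median log2 fold change was -0.01, beside -0.08. The most abundant of them are mesenchymal genes. *Vim* had an FPKM of 293.5 and 222 in the controls, and 233 and 235 in the mutants, and *Cdh11* had 165 and 146, and 151 and 155. *Fn1* had 108 and 97.4 in the controls, and 103 and 102 in the mutants. *Cdh2*, which codes for N-cadherin, had 22.3 and 19.2 in the controls, and 22.7 and 23.8 in the mutants, and was the one gene of these 4 whose groups did not overlap, being higher in both mutants as were 8.66% of all genes. The gene with the unadjusted p under 0.05 was *Zeb2*, a zinc finger repressor named here after its values were seen, which had 7.79 and 7.31 in the controls, and 10.9 and 10.4 in the mutants, 1.41 times the control level (limma adjusted p = 0.109). Its relative *Zeb1*, also named after its values were seen, went the other way. *Zeb1* had 12.17 and 11.0 in the controls, and 9.995 and 9.959 in the mutants (limma adjusted p = 0.357). It was lower in both mutants, as were 38.7% of all genes.

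**Figure D5:**
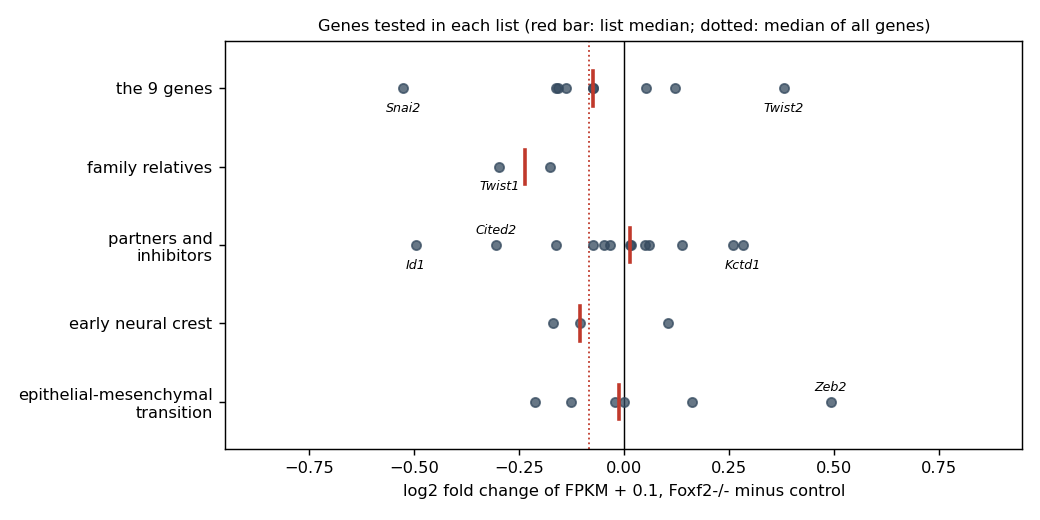
Log2 fold change, *Foxf2*-/- minus control embryos on log2(FPKM + 0.1), of the tested genes of 5 lists, with each gene a point, a red bar at the median of each list and a dotted line at the median of all 7399 genes, -0.08. The 9 transcription factors run from -0.53 to 0.38, the partners and inhibitors from -0.50 to 0.28, and *Zeb2* stands highest at 0.49.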

How the data were processed

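RNA of RFP-positive palatal cells from 4 E13.5 embryos was sequenced. The authors made Nextera libraries, used Tophat with Bowtie to map single-end reads on mm9 (Bowtie 0.12.7 in the submitters' processing notes) and deposited FPKM per RefSeq transcript, 1 table per embryo without pooling, in the form Cufflinks writes. The deposited coverage is the estimated read depth over a transcript. The program version, read length and strand setting were not given in the sources used here.

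Entries of at least 200 bases were summed by symbol, and entries with a failed estimate (25 entries) were dropped. The filter kept genes that reached 5 FPKM in any embryo, and they were tested as log2(FPKM + 0.1), with limma 3.58.1 in R 4.3.3 (variance trend, Benjamini-Hochberg adjustment, threshold 0.05 with a change over 1.5-fold). The log2 scale with a pseudocount understates changes of low genes. The fit was tested on simulated data. Both groups held 2 embryos. The limma p-values rest on the spread between these, moderated by a variance trend over all genes tested. The spread of the controls includes the difference between a *Foxf2*+/+ and a *Foxf2*+/- embryo. Python 3.11.15, pandas 2.3.3 and scipy 1.17.1 were used for the rest.

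The 9 members and the lists of other genes were chosen with earlier results of these data known. The members and family relatives kept in the lists are all named, and of each other list the 4 genes with the highest mean FPKM and any gene called or past 1.5-fold against both controls. Outside this rule, *Cited2*, *Kctd1*, *Kctd15*, *Zeb1* and *Zeb2* were named after their values were seen. Gene positions are the spans of the deposited transcript entries. Strands, exon positions, coding ends and shared runs came from the NCBIM37 (mm9) genome and its Gencode annotation. Exact runs were searched on the transcript strand. Results were recomputed under 17 other settings, and 1 more, keeping only entries whose status was OK, which was chosen after seeing the data. Counts and medians of a list cover its named and unnamed genes alike. Certain further genes are not reported here.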

Additional observations from a re-analysis of the deposited data

How the results depend on the processing

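Under every one of the 18 alternatives limma called 0 of the 9 members, with 2 or 3 at an unadjusted p under 0.05, except that 1, *Snai2*, was called without the *Foxf2*+/- embryo. Leaving out 1 embryo gave 0 to 1 members by limma and 0 to 1 past 1.5-fold against both controls, the 1 again being *Snai2*. Over all genes, the 6 limma calls became 16 with a pseudocount of 1, 11 with median-ratio and 12 with upper-quartile scaling, 26 with entries of every length, 1 with the highest entry per gene, 11 with robust estimation, 78 with a mean per genotype and 43 with null alleles as a linear term. With no filter on low values limma called 0, with 1777 at an unadjusted p under 0.05. Leaving out 1 embryo gave 7 to 122. The 49 genes past 1.5-fold became 216 with an FPKM of at least 1, 639 with no filter, 184 with entries of every length, 96 with the highest entry and 17 at 2-fold, and 71 to 218 without 1 embryo. *Snai2*, *Twist2*, *Prrx1* and *Snai1* kept their direction throughout. With a mean per genotype the adjusted p of *Snai2* was 0.0330, below 1.5-fold. With null alleles as a linear term the log2 fold change of *Snai2* was -0.69, past 1.5-fold, but the limma adjusted p was 0.0506. Median-ratio scaling turned *Alx1* to 0.00602 and *Prrx2* to 0.00691. Without 1 embryo the log2 fold change ran from -0.27 to 0.12 for *Alx1*, -0.0746 to 0.32 for *Alx4*, -0.38 to 0.0644 for *Tfap2a* and -0.21 to 0.32 for *Tfap2b*. The causes were not tested. No paired analysis was possible because the labels number only the *Foxf2*-/- embryos. Read numbers are unknown, so no counting error could be given for the low genes *Tfap2a* and *Alx4*.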
